A study of Mus musculus with 10 samples.

Results

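Kinesins are the motor proteins that move along microtubules, and the table described here lists 43 of them among its 35395 gene identifiers. They were taken as every row whose symbol is KIF or KIFC followed by a number and at most 1 further letter, so that KIFAP3, KIF1BP and the antisense genes fall outside. Of the 43, 9 are mitotic motors (KIF11, KIF14, KIF15, KIF18A, KIF20A, KIF23, KIF2C, KIF4A and KIFC1) and 34 are the other kinesins. The labels describe RNA sequencing of epididymal white adipose tissue, a visceral fat depot, from male C57BL/6 mice in 4 groups: Ad-GFP (3 samples) and Ad-IGF2 (2 samples), injected into the fat of mice with diet-induced obesity 2 times a week for 4 weeks after 8 weeks of high-fat diet, and NC-RNAi (3 samples) and IGF2-RNAi (2 samples), given as lentivirus by the tail vein at 3 to 4 weeks of age. The adenoviral vector carries a CMV promoter, which is not restricted to fat cells, and the hairpin vector an hU6 promoter. The labels also mention 2 replicate sequencing runs for each group, without saying whether these are separate animals.

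None of this could be tied to the values. All 35395 identifiers are human, the 4 comparisons in the authors' deposited table carry no names, and 0 of the 24 value columns belong to a named sample, so no kinesin value below is assigned to a group of mice or to IGF2. The base means of the 4 comparisons could be split into whole reads per library, and they rest on 8 libraries in 4 sets of 2. These are called reference set 1, reference set 2, numerator set 1 and numerator set 2, each with a library a and a library b, a being the one with the smaller size factor. Numerator set 1 stands against reference set 1 in the first comparison and against reference set 2 in the second, and numerator set 2 stands against the same reference sets in the third and the fourth. Comparisons that share a set are therefore not independent. The libraries held 10400501 to 24039029 derived reads over the 35151 rows that could be split. Left out are 67 rows with too many reads to search and 177 that occur in the second comparison alone, so the full totals were higher. Levels below are derived reads divided by the library's size factor, called normalised reads, and are compared between libraries. Gene length is not corrected, so levels of different genes or lists are set beside each other only as a rough guide.

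The tissue on the label was barely seen in its markers. The 8 fat cell markers summed to 11 to 32 normalised reads in the 4 reference libraries and to 28, 78, 153 and 227 in the 4 numerator libraries, and ADIPOQ, the fat hormone adiponectin, lay between 0 and 2.17. PLIN4 made up 72.4 of the sum in library b of numerator set 1, and 124 and 179 in numerator set 2. In the authors' deposited table PLIN4 was higher in the third comparison (log2 fold change 3.28, adjusted p = 1.41e-08) and the fourth (3.52, adjusted p = 1.89e-10). PLIN1 was higher in the fourth (adjusted p = 0.0453). Only 4 of the 8 fat cell markers had an adjusted p in each of these comparisons, and 0 of those were called lower. Among all tested genes 14.8% and 17.2% were called higher, and 16.1% and 17.5% lower. IGF2 had 2 reads over all 8 libraries. The 10 markers of dividing cells, by contrast, summed to 40656 to 47092 in the reference libraries. White blood cell markers summed to 28 to 152, with PTPRC, the pan-leukocyte antigen, at 0 to 6.47.

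Kinesins use ATP to step along microtubules, most of them towards the plus end. In dividing cells a specialised group builds the spindle, positions chromosomes and completes cell separation, and the transcripts of this group rise towards mitosis and are low in resting cells. The remaining families carry vesicles, mitochondria and other cargo, drive transport inside cilia, or regulate microtubule ends. In bulk RNA, fewer dividing cells and less RNA per dividing cell cannot be told apart.

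The libraries of numerator set 1 stood apart from each other, which bears on every value of the first and the second comparison. Over 13685 genes with a mean of at least 2 CPM (reads scaled to a total of 1000000), 16.5% differed over 2-fold between library a and library b of this set, against 3.55%, 2.08% and 0.972% for the pairs of reference set 1, reference set 2 and numerator set 2. The SD of the log2 ratio between its libraries was 0.654, against 0.246 to 0.34 in the other sets, over genes with at least 100 reads in each library. Counting error alone gives 0.0874 to 0.102, so no pair agreed within sampling noise and none was counted as 1 library.

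Mitotic kinesins followed that split. KIF11, the plus-end motor that pushes spindle poles apart, had 2307 and 1787 normalised reads in reference set 1, 1511 and 2115 in reference set 2, 2461 and 459 in numerator set 1, and 637 and 565 in numerator set 2. Library a of numerator set 1 was above all reference libraries, whereas library b lay below them and below both libraries of numerator set 2. KIF15, a motor that can sustain a bipolar spindle when KIF11 is inhibited, had the same order, at 590 and 530, 349 and 397, 651 and 122, and 194 and 174 in those 4 sets. KIFC1, a minus-end motor that bundles microtubules at spindle poles, had 2202 and 2124 in reference set 1 and 2388 and 2283 in reference set 2. It had 2419 and 497 in numerator set 1 and 796 and 585 in numerator set 2, so that its reference libraries were close together and all others but 1 were far lower.

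The motors of cytokinesis and of the central spindle were split in the same way. KIF23, the motor subunit of centralspindlin, had 2575 and 1989 normalised reads in reference set 1, 1982 and 2270 in reference set 2, 2975 and 782 in numerator set 1, and 721 and 674 in numerator set 2. KIF20A, which is needed for cytokinesis, had 1733 and 982, 2411 and 2819, 2087 and 598, and 399 and 266. For KIF20A the reference sets themselves did not overlap. KIF14, another cytokinesis motor, had 1248 and 786, 734 and 1190, 1579 and 384, and 414 and 422, with overlapping reference sets. KIF4A, a chromosome-bound motor that also organises the central spindle, had 1502 and 1140, 1450 and 1576, 1732 and 418, and 530 and 380.

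Motors that position chromosomes showed the same gap within numerator set 1. KIF2C, a depolymerase at centromeres that corrects faulty attachments, had 1970 and 1290 normalised reads in reference set 1, 3094 and 3192 in reference set 2, 2179 and 532 in numerator set 1, and 566 and 404 in numerator set 2. Its reference set 2 lay above every other library. KIF18A, which limits chromosome oscillation at the metaphase plate, had 663 and 421, 512 and 629, 750 and 277, and 184 and 187, the smallest gap between the libraries of numerator set 1 among the 9.

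**Figure D1:**
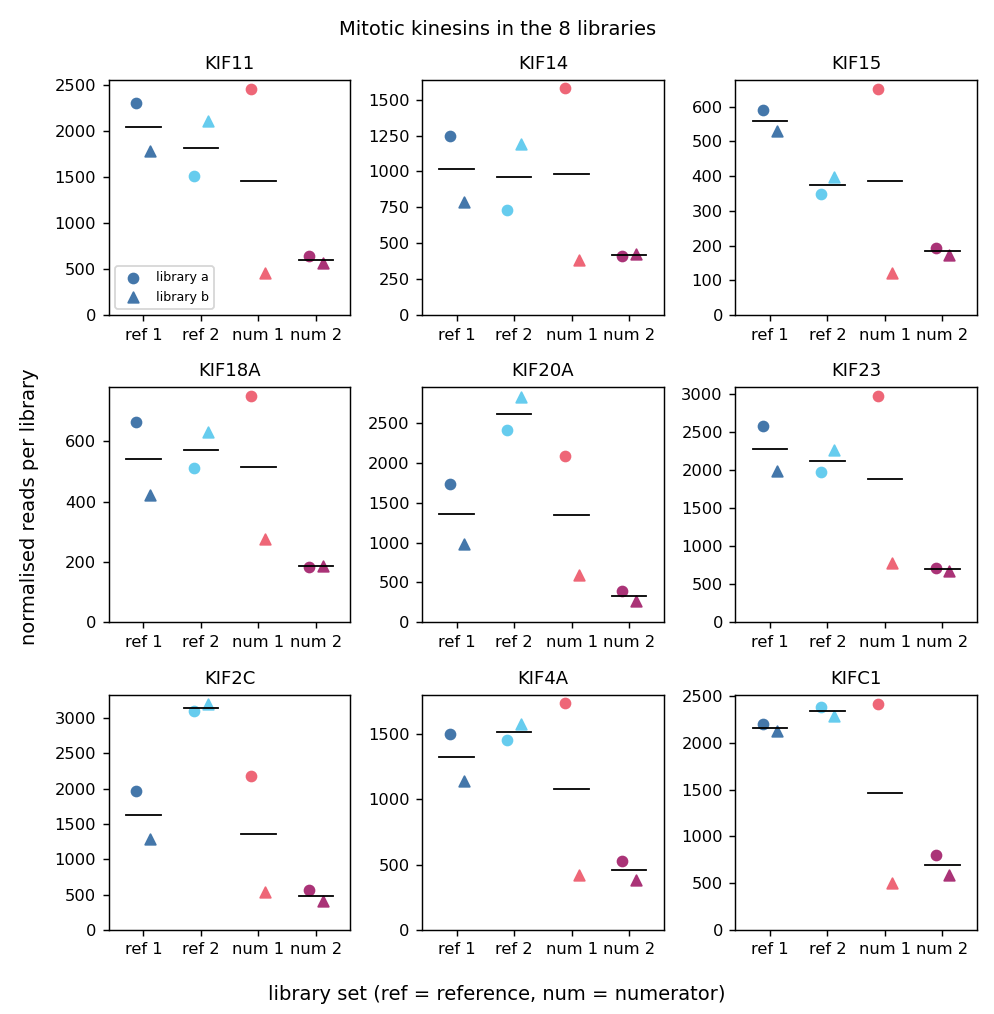
Normalised reads (y axis, from 0, linear) of the 9 mitotic kinesins in the 4 library sets (x axis); circles are library a, triangles library b and bars the mean of the 2. Library b of numerator set 1 and both libraries of numerator set 2 lie below all 4 reference libraries for each gene, whereas library a of numerator set 1 lies within or above them.

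Counted over the 9, library b of numerator set 1 was below all 4 reference libraries for 9, where 34.1% of the 13685 genes were. Library a was above all 4 reference libraries for 7 of 9, where 16.3% of genes were, and within their range for KIF20A and KIF2C. Both libraries of numerator set 2 were below all reference libraries for 9 of 9, where 33.9% of genes were. Of the 24 other kinesins with at least 2 CPM, 8 lay below and 11 above all reference libraries in library b of numerator set 1, the latter against 29.8% of genes. In numerator set 2, 12 of these 24 lay below and 5 (KIF17, KIF21A, KIF27, KIF7 and KIF9) above all reference libraries, the latter against 26.3% of genes. The 2 CPM filter takes the mean over all 8 libraries, and KIF17 and KIF7 passed it through numerator set 2. In the first and the second comparison, without that set, base means were 0.52 and 0.63 CPM for KIF17 and 1.35 and 1.57 CPM for KIF7. Levels of the 9 in library a were 2.7 to 5.36 times those in library b, with a median of 4.11. All 9 were over 2-fold lower in library b than in library a, a gap that 7.4% of the 13685 genes had. Of the other kinesins with at least 2 CPM, 5 of 24 (KIF18B, KIF20B, KIF21B, KIF22 and KIF24) were over 2-fold lower in library b, and KIF17 (26 reads against 3) and KIF26B were over 2-fold higher, which 9.1% of genes were. The median ratio of library b to library a was 0.243 for the 9 mitotic kinesins, 1.07 for the 25 other kinesins with over 3 reads in each library, and 0.971 for all 13685 genes. Dividing cell markers moved alongside: their sum was 53970 in library a and 13186 in library b, and 16114 and 12920 in numerator set 2. Whether these markers and the kinesins moved for the same reason was not tested.

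**Figure D2:**
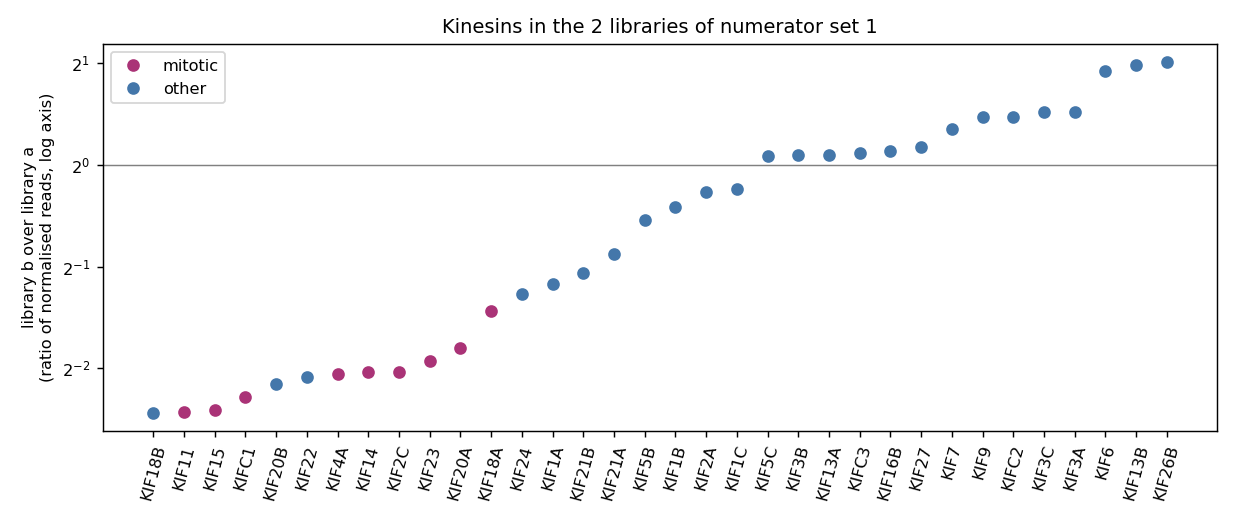
Ratio of normalised reads in library b over library a of numerator set 1 (y axis, log scale) for the 34 kinesins with over 3 reads in each of these libraries, ordered by ratio. The mitotic kinesins lie between 0.186 and 0.37, KIF20B and KIF22 within that range, and KIF18B just below it at 0.184.

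The third and the fourth comparison, which hold numerator set 2, called all 9 mitotic kinesins lower. Log2 fold changes in the authors' deposited table ran from -2.08 to -1.33 for numerator set 2 against reference set 1 and from -3.04 to -1.08 against reference set 2. Adjusted p-values of the 9 in the authors' deposited table were at most 2.02e-07 in the third and at most 0.000305 in the fourth. Over all genes with an adjusted p there, 16.1% were called lower in the third and 17.5% in the fourth, and 26.7% and 27.6% of those with at least 2 CPM. The median log2 fold change of the 9 was -1.69 and -1.68 in the authors' deposited table, against 0.093 and 0.0786 for all tested genes. The median of genes with at least 2 CPM was -0.156 and -0.145, and the 9 remained called after centring on it.

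Single motors differed in the size of their drop. KIF20A had the largest in both of these, going by the authors' deposited table, with a log2 fold change of -2.08 (SE 0.27, adjusted p = 3.38e-13), or 4.22-fold lower, in the third and -3.04 (SE 0.22, adjusted p = 2.07e-39), or 8.22-fold lower, in the fourth. KIF2C followed in the fourth, at -2.76 (SE 0.21, adjusted p = 2.28e-38) in the authors' deposited table, and had -1.80 (SE 0.23, adjusted p = 5.56e-13) in the third. These 2 passed the limma test between the reference sets: on the derived reads it gave reference set 2 above reference set 1 by a log2 difference of 0.99 for KIF20A (SE 0.23, adjusted p = 0.0198) and 0.96 for KIF2C (SE 0.21, adjusted p = 0.0119). Without library a of reference set 2, or without library b of reference set 1 or of reference set 2, neither passed the limma test. The reference sets of KIF15 did not overlap either, in the opposite direction, with a limma log2 difference of -0.60 (SE 0.21, adjusted p = 0.0953). KIF15 had the smallest drop of the 9 in the fourth comparison, at -1.08 (SE 0.26, adjusted p = 0.000305) in the authors' deposited table, and KIF14 had the smallest in the third, at -1.33 (SE 0.23, adjusted p = 2.02e-07). KIF11 had -1.81 (SE 0.19, adjusted p = 2.75e-20) and -1.65 (SE 0.22, adjusted p = 8.66e-13) there, and KIF23 had -1.76 (SE 0.18, adjusted p = 3.78e-20) and -1.67 (SE 0.19, adjusted p = 4.19e-17) in the authors' deposited table. A limma fit of the derived reads called the 9 lower as well, where 21.2% of genes were called lower and 25.6% higher in the third comparison; for the fourth these shares were 22.8% and 27.3%.

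**Figure D3:**
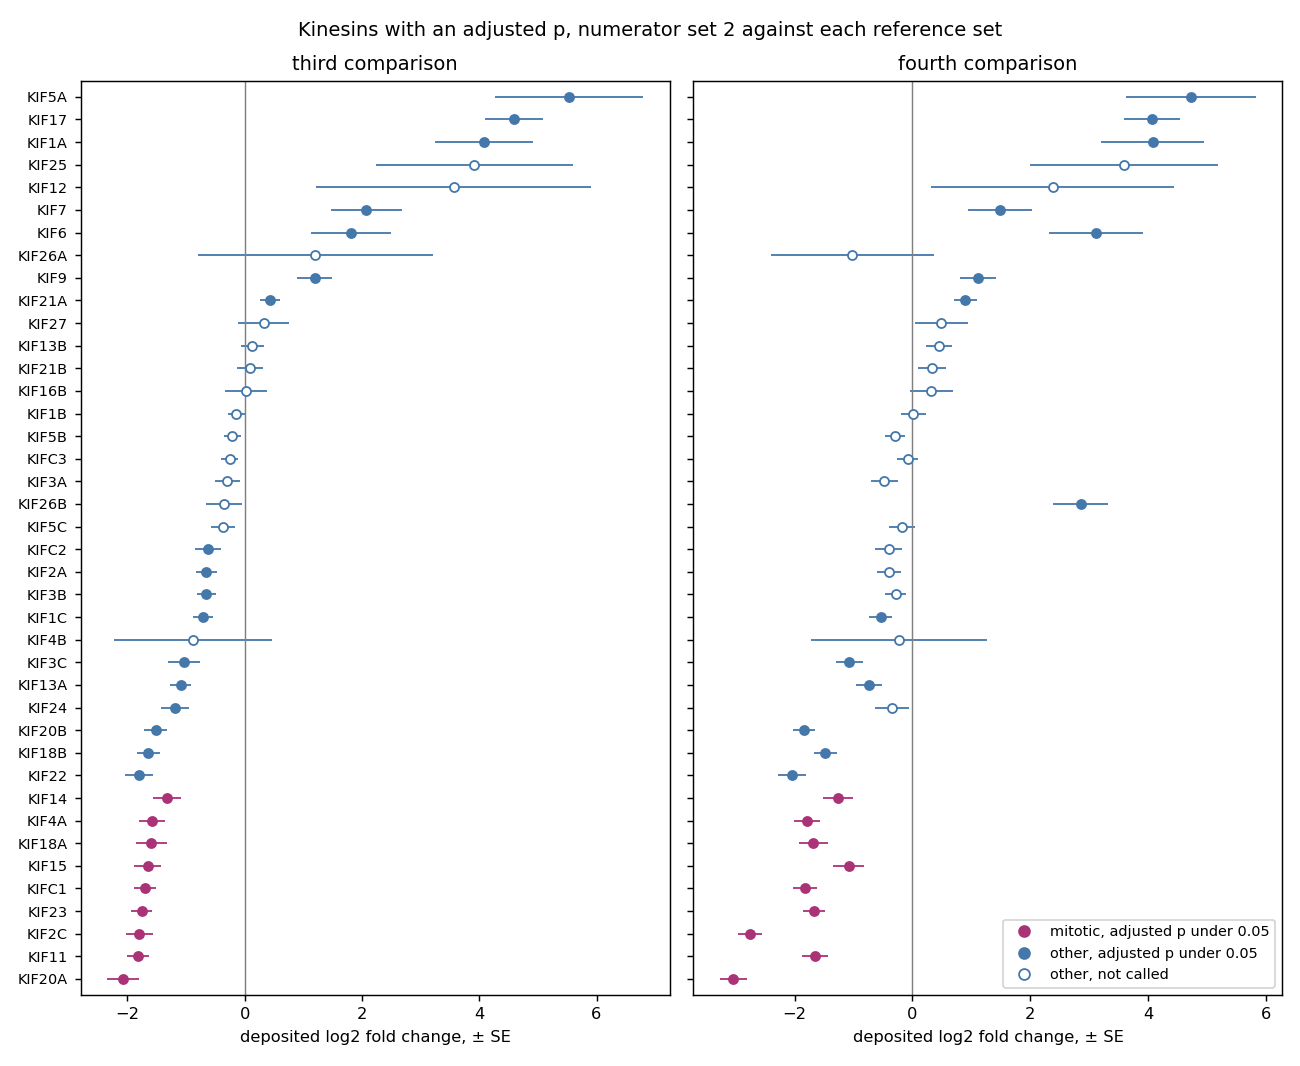
Log2 fold changes with their SE (x axis) from the authors' deposited table for the kinesins with an adjusted p in the third comparison (left) and the fourth (right), 1 row a gene. Mitotic kinesins (purple) lie between -2.08 and -1.33 on the left and between -3.04 and -1.08 on the right; filled points passed an adjusted p of 0.05, and the other kinesins (blue) spread to both sides of 0.

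In the first and the second comparison no mitotic kinesin passed the deposited test. Log2 fold changes of the 9 in the authors' deposited table ran from -0.58 to -0.02 in the first comparison, where 0.0258% of genes were called lower, and from -1.20 to 0.07 in the second, where 0.262% were. Their SE there was 0.472 to 0.571 in the first and 0.46 to 1.09 in the second, against 0.181 to 0.269 in the third and 0.188 to 0.265 in the fourth. Unadjusted p-values in the authors' deposited table were under 0.05 for 0 of the 9 in the first comparison and for 2, KIF20A and KIF2C, in the second. A limma fit of the derived reads also called 0 of the 9 in each, with 0 and 2 at an unadjusted p under 0.05, where it called 0 genes in the first and 0.0231% lower and 0.0173% higher in the second.

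The outcome turned on which library of numerator set 1 was used. With library b alone, limma on the derived reads called 8 of 9 lower in the first comparison, with a median log2 fold change of -1.57, and 9 of 9 in the second, with a median of -1.84. All genes were called lower there in 9.9% and 11.8% of cases. KIF18A was the exception in the first, at -0.90 (SE 0.29, limma adjusted p = 0.0692). With library a alone, limma called 0 of 9 in either comparison, with medians of 0.41 and 0.43 on the log2 scale, where 0% and 1.31% of all genes were called lower and 0% and 2.44% higher. In these fits 1 library stands for the numerator set, and it is assumed to vary as the reference libraries do. The position of library b is thus known from 1 library only.

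**Figure D4:**
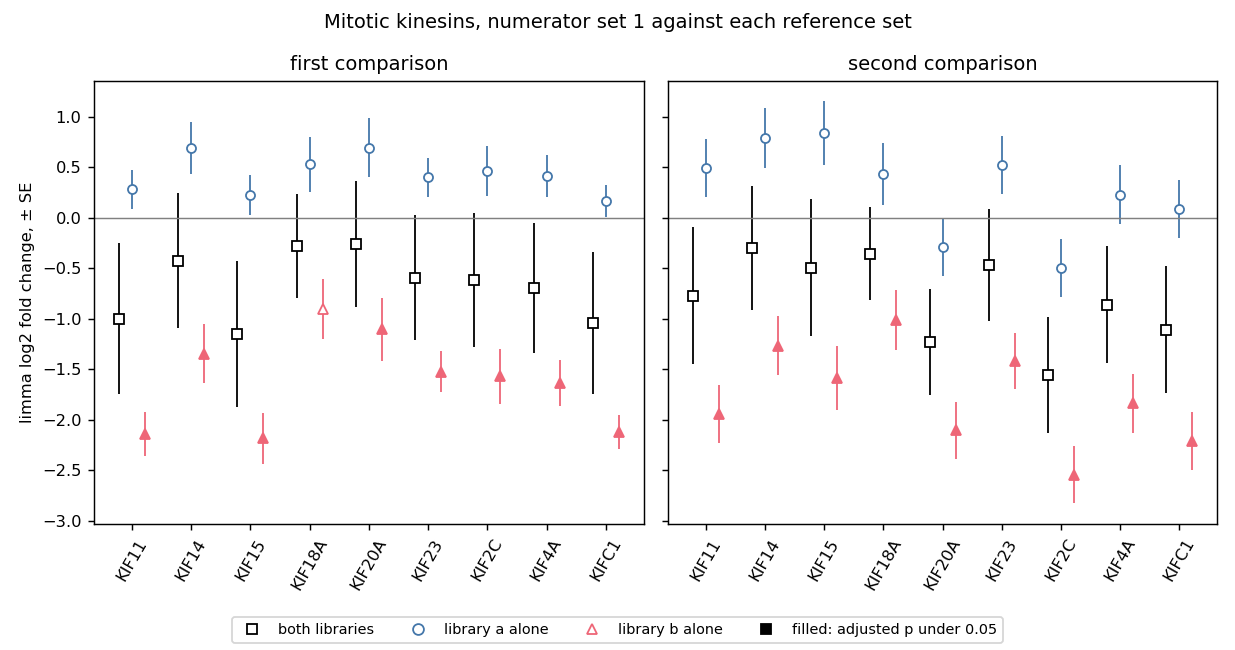
Limma log2 fold changes with their SE (y axis) of the 9 mitotic kinesins in the first comparison (left) and the second (right), with both libraries of numerator set 1 (squares), library a alone (circles) or library b alone (triangles). Filled points passed an adjusted p of 0.05: with library b alone 8 of 9 did on the left and 9 of 9 on the right, and with both libraries or library a alone 0 of 9 did.

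The numerator sets were also set against each other. With limma on the derived reads, 0 of the 9 mitotic kinesins differed between numerator set 2 and numerator set 1, where 2.11% of genes were called lower and 6.42% higher; 1 of them, KIF20A, had an unadjusted p under 0.05. Against library a of numerator set 1 alone, 9 of 9 were lower in numerator set 2, with a median log2 difference of -2.03, where 20% of genes were called lower. Against library b alone the median was 0.01. KIF20A and KIF18A were then still lower in numerator set 2 in the limma fit, by log2 differences of -0.97 (SE 0.22, adjusted p = 3.92e-05) and -0.66 (SE 0.25, adjusted p = 0.0231), where 22.5% of genes were lower and 22.9% higher. The other 7 did not pass the limma test against library b, which does not show that they were equal.

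The genes that work with these motors and control them were taken as lists. Of the 16 mitotic partners, such as Aurora kinases, the chromosomal passenger complex and PLK1, 15 were lower in the third comparison and 15 in the fourth, going by the authors' deposited table. Among all tested genes 16.1% and 17.5% were lower there, and 26.7% and 27.6% of those with at least 2 CPM. The medians of the partners were -1.55 and -1.81, against 0.093 and 0.0786 for all tested genes. In the third, INCENP, the scaffold of the passenger complex, had -1.74 (SE 0.18, adjusted p = 1.66e-19), ANLN, an actin-binding protein of the cleavage furrow, -1.66 (SE 0.18, adjusted p = 8.69e-19), and ECT2, the RhoA activator bound by centralspindlin, -1.43 (SE 0.17, adjusted p = 3.12e-16) in the authors' deposited table. In the fourth, PLK1, a mitotic kinase, had -2.46 (SE 0.18, adjusted p = 9.44e-40), CENPE, itself a kinesin at kinetochores that the naming rule does not reach, -2.49 (SE 0.19, adjusted p = 1.11e-36), and AURKA, a spindle pole kinase, -2.31 (SE 0.19, adjusted p = 1.99e-32) in the authors' deposited table. The partner that passed neither test is PRC1, the midzone bundler that KIF4A binds, with 6.89 to 43.1 normalised reads. CENPE showed the library split as well, with 2443 and 1490 normalised reads in reference set 1, 2767 and 3070 in reference set 2, 3439 and 661 in numerator set 1, and 588 and 494 in numerator set 2.

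Regulators of mitotic genes were the second list. Of 15, 9 were lower and 0 higher in the third comparison, and 8 lower and 1 higher in the fourth, the medians being -0.60 and -0.63 by the authors' deposited table. Over all tested genes 16.1% and 17.5% were lower, and 26.7% and 27.6% of those with at least 2 CPM. The 1 that was higher is LIN52, a MuvB subunit. FOXM1, a transcription factor of mitotic genes, had log2 fold changes of -1.75 (SE 0.19, adjusted p = 1.38e-17) and -2.20 (SE 0.20, adjusted p = 9.68e-27) in the authors' deposited table. MYBL2, which acts with the MuvB complex, had -1.18 (SE 0.19, adjusted p = 1.55e-08) and -1.20 (SE 0.21, adjusted p = 2.71e-07) there, RBL2, a pocket protein of resting cells, -1.24 (SE 0.21, adjusted p = 9.92e-08) in the third, and E2F2, an activator of S-phase genes, -2.05 (SE 0.28, adjusted p = 8.96e-12) in the fourth, going by the authors' deposited table. The libraries with low mitotic kinesins were not alike in these regulators. MYBL2 had 413 normalised reads in library b of numerator set 1 and 1555 and 1107 in numerator set 2. RBL1, a pocket protein, had 204 against 746 and 601, and RBL2 had 860 against 409 and 346, the reverse order.

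Promoter sequence was looked at in mouse, the labelled species, because no human sequence was used here. Mitotic genes are known for a short element near their start, the cell cycle genes homology region, of which TTTGAA is a common form. RefSeq promoters of GRCm38.p6, 250 bases before to 50 after the start, matched 31 of the 43 symbols, among them 7 of the 9 mitotic ones. Letters TTTGAA, searched on both strands, were in 6 of 7 promoters of mitotic kinesins (Kif11, Kif14, Kif15, Kif23, Kif2c and Kifc1, not Kif18a), in 6 of 28 promoters of the other kinesins, and in 17.9% of all 32851 promoters. The promoters of Kif11 (chr19:37376132-37376431, + strand), Kif23 (chr9:61946750-61947049, - strand) and Kifc1 (chr17:33890584-33890883, - strand) are shown as 3 of the 4 in which the letters lie within 20 bases of the start, the other being Kif15, and that of Kif18a (chr2:109280488-109280787, + strand) because it lacks them. Capitals mark TTTGAA or its reverse complement.
Kif11: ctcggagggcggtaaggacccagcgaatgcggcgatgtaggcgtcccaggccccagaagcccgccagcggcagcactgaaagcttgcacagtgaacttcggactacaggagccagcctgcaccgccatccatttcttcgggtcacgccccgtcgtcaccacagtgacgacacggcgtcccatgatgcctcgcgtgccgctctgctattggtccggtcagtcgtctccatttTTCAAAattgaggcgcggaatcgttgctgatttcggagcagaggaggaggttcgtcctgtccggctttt
Kif23: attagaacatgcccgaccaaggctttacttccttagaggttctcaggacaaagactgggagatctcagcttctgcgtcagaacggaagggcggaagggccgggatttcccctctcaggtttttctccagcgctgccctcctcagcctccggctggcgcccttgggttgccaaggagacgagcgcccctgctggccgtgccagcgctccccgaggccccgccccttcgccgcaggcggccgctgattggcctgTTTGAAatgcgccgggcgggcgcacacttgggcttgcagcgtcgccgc
Kifc1: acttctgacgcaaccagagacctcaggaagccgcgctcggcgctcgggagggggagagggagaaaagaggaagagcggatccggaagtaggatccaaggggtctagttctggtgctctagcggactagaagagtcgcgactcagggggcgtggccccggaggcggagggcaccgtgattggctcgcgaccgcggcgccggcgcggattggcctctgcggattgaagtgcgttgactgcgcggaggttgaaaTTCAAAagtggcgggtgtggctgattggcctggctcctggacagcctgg
Kif18a: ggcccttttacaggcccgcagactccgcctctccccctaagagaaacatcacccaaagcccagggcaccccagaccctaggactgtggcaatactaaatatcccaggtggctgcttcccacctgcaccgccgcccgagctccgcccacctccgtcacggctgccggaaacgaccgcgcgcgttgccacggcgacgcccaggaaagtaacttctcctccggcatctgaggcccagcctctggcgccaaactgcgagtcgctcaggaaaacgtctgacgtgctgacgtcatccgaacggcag
With the start counted as base 1, the leftmost base of the match is at -19 in Kif11, 3 in Kif23 and 2 in Kifc1. Kif15 has a match at -19 and another farther upstream, whereas those of Kif2c at -103 and Kif14 at -228 lie far from the start, although they count among the 6 of 7. A match describes these letters in a mouse promoter; it shows no binding, and the expression values come from human identifiers.

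Kinesins of dividing cells beyond the 9 went with them in part. KIF18B, which shortens astral microtubules with KIF2C, KIF20B, a cytokinesis motor, and KIF22, a chromosome arm motor, were lower in both the third and the fourth comparison. In the authors' deposited table KIF22 had -1.80 (SE 0.23, adjusted p = 4.60e-13) and -2.05 (SE 0.24, adjusted p = 1.22e-15), KIF20B -1.52 (SE 0.20, adjusted p = 9.85e-13) and -1.84 (SE 0.19, adjusted p = 3.28e-21), and KIF18B -1.65 (SE 0.20, adjusted p = 5.14e-15) and -1.48 (SE 0.20, adjusted p = 2.05e-12). KIF18B had 2691 and 1984 normalised reads in reference set 1, 2035 and 2075 in reference set 2, 2553 and 469 in numerator set 1, and 862 and 680 in numerator set 2. Library b of numerator set 1 was again the lowest of the 8. KIF24, a depolymerase at centrioles, was lower in the third comparison, going by the authors' deposited table (-1.19, SE 0.24, adjusted p = 1.14e-05) and had -0.35 (SE 0.29, adjusted p = 0.386) in the fourth. Its normalised reads were 415 and 517 in reference set 1 and 215 and 300 in reference set 2, and limma on the derived reads gave reference set 2 lower by a log2 difference of -0.89 (SE 0.24, adjusted p = 0.0351), a call lost without library b of reference set 1 or library a of reference set 2. KIF2A, a depolymerase with roles in division and in neurons, had -0.66 (SE 0.17, adjusted p = 0.00114) and -0.40 (SE 0.21, adjusted p = 0.128) in the authors' deposited table. KIF4B, a near-copy of KIF4A whose reads may be shared with it, had 1.72 to 10.8 normalised reads in any library and passed no test, and KIF2B had at most 7.55.

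The 34 other kinesins as a whole moved in both directions. Of the 31 with an adjusted p in the third comparison, 10 were lower, 7 higher and 14 not called; of 31 in the fourth, 6 were lower, 8 higher and 17 not called. Higher calls made up 14.8% and 17.2% of all tested genes in the authors' deposited table. Lower calls made up 16.1% and 17.5% of them, and 26.7% and 27.6% of those with at least 2 CPM. The median log2 fold change of the other kinesins was -0.21 and -0.08 there, against -1.69 and -1.68 for the mitotic ones. The shares of lower calls, 10 of 31 and 6 of 31, include the 5 and 3 kinesins of dividing cells just described. In the first and the second comparison 27 and 25 other kinesins had an adjusted p. KIF5A, called higher in the third and the fourth, had none in the first or the second, and KIF1A had none in the second. KIF5A thus entered the 31 through numerator set 2, where it was high, so its higher calls are not separate from that filter.

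Cargo motors of kinesin-1 differed by member. KIF5B, the heavy chain found in most cells, had 5730 and 5104 normalised reads in reference set 1, 5433 and 5941 in reference set 2, 6448 and 4427 in numerator set 1, and 4615 and 5050 in numerator set 2. It passed no test in the authors' deposited table, with -0.21 (SE 0.14, adjusted p = 0.286) in the third comparison and -0.30 (SE 0.17, adjusted p = 0.163) in the fourth. KIF5A, the heavy chain of neurons, had 2.11 and 0, 1.11 and 2.17, 2.16 and 2.3, and 34.4 and 56.4 in the same 4 sets. Only the libraries of numerator set 2 among the 8 held more than 5 reads of it. Its 78 reads in numerator set 2 against 2 in reference set 1 are a ratio of 50.2 (exact 95% counting interval 13.4 to 422), and against 3 in reference set 2 a ratio of 28.2 (9.29 to 140). The log2 fold changes of KIF5A in the authors' deposited table were 5.53 (SE 1.26, adjusted p = 9.98e-05) and 4.73 (SE 1.10, adjusted p = 0.000128). KIF5C, a further neuronal heavy chain, had 549 to 976 normalised reads over the 8 libraries and passed neither deposited test.

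Kinesin-2, which carries cargo in cilia and in the cytoplasm, held members that moved in opposite directions. KIF17, a homodimeric motor of neuronal dendrites and cilia, had 7.39 and 10.7 normalised reads in reference set 1, 8.90 and 17.4 in reference set 2, 3.24 and 14.9 in numerator set 1, and 180 and 278 in numerator set 2. Numerator set 2 lay above the other 6 libraries without overlap. KIF17 had log2 fold changes of 4.59 (SE 0.49, adjusted p = 6.10e-19) and 4.06 (SE 0.48, adjusted p = 1.01e-15) in the authors' deposited table. KIF3C, a partner of the KIF3 motors, went the other way, at -1.04 (SE 0.27, adjusted p = 0.000688) and -1.07 (SE 0.23, adjusted p = 2.74e-05) there. KIF3C had 540 and 945, 727 and 777, 740 and 1055, and 423 and 325 normalised reads, so that library b of numerator set 1 was the highest and numerator set 2 the lowest. KIF3B, a core subunit, was lower in the third comparison, going by the authors' deposited table (-0.66, SE 0.16, adjusted p = 0.000328) and had -0.29 (SE 0.18, adjusted p = 0.225) in the fourth. Its partner KIF3A had -0.29 (SE 0.22, adjusted p = 0.337) and -0.48 (SE 0.23, adjusted p = 0.101) in the authors' deposited table.

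Kinesin-3, fast motors of vesicles, was divided. KIF1A, the motor of synaptic vesicle precursors, had 5.28 and 1.65 normalised reads in reference set 1, 5.56 and 1.09 in reference set 2, 6.47 and 2.87 in numerator set 1, and 50.2 and 66.2 in numerator set 2. It had log2 fold changes of 4.08 (SE 0.84, adjusted p = 1.37e-05) and 4.08 (SE 0.87, adjusted p = 2.65e-05) in the authors' deposited table. KIF13A, a motor of recycling endosomes, was lower in both comparisons, at -1.09 (SE 0.18, adjusted p = 3.63e-08) and -0.74 (SE 0.22, adjusted p = 0.00468) in the authors' deposited table. KIF13A had 1370 and 1461 in numerator set 1 and 717 and 604 in numerator set 2, and limma on the derived reads gave numerator set 2 lower by a log2 difference of -1.15 (SE 0.20, adjusted p = 0.0329), a call lost without either library of numerator set 2. KIF1C, a motor of the Golgi and of adhesion sites, had -0.71 (SE 0.17, adjusted p = 0.000181) and -0.54 (SE 0.19, adjusted p = 0.0166) in the authors' deposited table. KIF1B, KIF13B and KIF16B passed no deposited test. KIF13B had 1077 normalised reads in library b of numerator set 1 and 461 to 776 in the other 7 libraries.

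A further 4 members, KIF7, KIF9, KIF6 and KIF21A, were called higher in both the third and the fourth comparison. KIF7, a regulator of Hedgehog signalling at the tip of the cilium, had 10.7 to 27.2 normalised reads in the reference libraries, 27 and 34.5 in numerator set 1, and 66.1 and 74.9 in numerator set 2. Its log2 fold changes in the authors' deposited table were 2.07 (SE 0.60, adjusted p = 0.00309) and 1.49 (SE 0.54, adjusted p = 0.0219). KIF9, a motor of motile cilia, had 108 to 115 normalised reads in the reference libraries, 84.1 and 116 in numerator set 1, and 231 and 282 in numerator set 2; it overlaps an antisense gene, and whether counting used strand is not given in the sources used here. KIF9 had 1.19 (SE 0.30, adjusted p = 0.000475) and 1.11 (SE 0.31, adjusted p = 0.00154) in the authors' deposited table. KIF6, whose reads were few, had 4.35 to 16.5 in the reference libraries and 38.3 and 60.8 in numerator set 2, with log2 fold changes of 1.82 (SE 0.68, adjusted p = 0.0285) and 3.11 (SE 0.80, adjusted p = 0.000629) in the authors' deposited table. KIF21A, a motor that slows microtubule growth at the cell cortex, had 619 to 985 in the reference libraries, 742 and 403 in numerator set 1, and 1236 and 1320 in numerator set 2. KIF21A had 0.43 (SE 0.17, adjusted p = 0.0426) and 0.90 (SE 0.20, adjusted p = 3.87e-05) in the authors' deposited table, and its order over the numerator libraries was the reverse of that of KIF3C. KIF5A, KIF1A and KIF6 lay under 2 CPM and are named for their calls, after their values were seen.

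**Figure D5:**
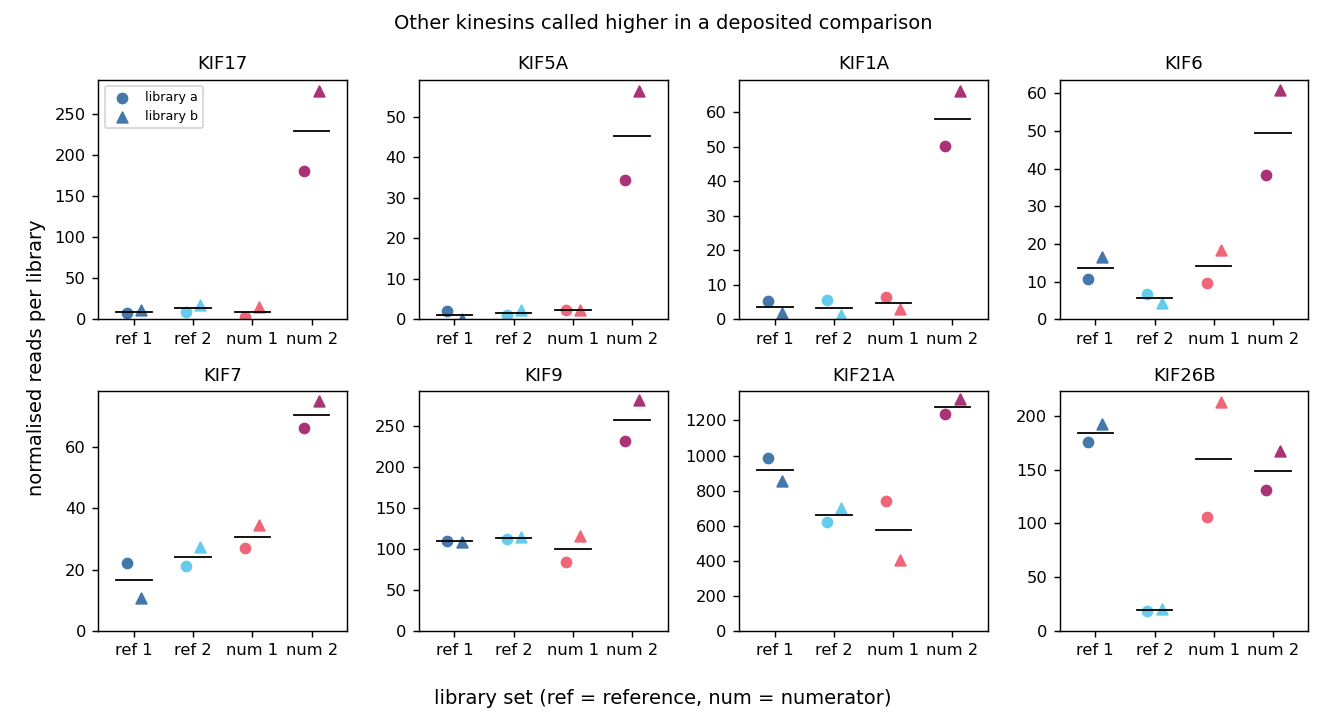
Normalised reads (y axis, from 0, linear) of the 8 other kinesins called higher in at least 1 comparison, going by the authors' deposited table, by library set (x axis); circles are library a, triangles library b and bars the mean of the 2. For KIF17, KIF5A, KIF1A, KIF6, KIF7, KIF9 and KIF21A both libraries of numerator set 2 lie above the other 6; KIF26B is low in reference set 2, at 18.9 and 20.7, and between 106 and 213 elsewhere.

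Because KIF5A, KIF1A and KIF17 are known from neurons and KIF7, KIF9 and KIF17 from cilia, the markers of those cells are given beside them. The 6 neuron markers summed to 221 to 295 normalised reads in the reference libraries, 285 and 442 in numerator set 1, and 533 and 571 in numerator set 2. Of these, 3 were higher and 0 lower in both the third and the fourth comparison, going by the authors' deposited table. Higher calls made up 14.8% and 17.2% of all tested genes. MAP2, a dendritic microtubule protein, took most of the sum, at 329 and 302 in numerator set 2, while SNAP25, a synaptic protein, had 47.6 and 56.4 there against 66 to 117 in the reference libraries, and STMN2, a neuronal tubulin-binding protein, was at 0 to 1.32 in all 8. The 5 ciliated cell markers summed to 30 to 55 in the reference libraries, 28 and 98 in numerator set 1, and 159 and 285 in numerator set 2. Of these, DNAH5 and CFAP43 were called higher in both the third and the fourth comparison. DNAH5, a dynein arm chain, made up 114 and 203 of the sum in numerator set 2. CFAP43, a protein of motile cilia and flagella, had 37 and 60.8 there against 1.06 to 2.48 in the reference libraries, with log2 fold changes of 4.70 (SE 1.01, adjusted p = 3.67e-05) and 5.42 (SE 1.24, adjusted p = 9.27e-05) in the authors' deposited table. FOXJ1, the master regulator of motile cilia, was at 0 to 6.51. The part of neuronal or ciliated cells in the kinesin values was not tested.

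KIF26B was the only kinesin called in the second comparison. KIF26B, a kinesin without motor activity that is known from kidney development and Wnt signalling, had 176 and 192 normalised reads in reference set 1, 18.9 and 20.7 in reference set 2, 106 and 213 in numerator set 1, and 131 and 167 in numerator set 2. Reference set 2 lay below the other 6 libraries. Its log2 fold changes in the authors' deposited table were 3.02 (SE 0.56, adjusted p = 4.65e-05) in the second comparison, where 0.558% of genes were called higher, and 2.85 (SE 0.46, adjusted p = 1.29e-08) in the fourth. Against reference set 1 it had -0.22 (SE 0.45, adjusted p = 1) and -0.35 (SE 0.31, adjusted p = 0.435) in the first and the third comparison, going by the authors' deposited table. Limma on the derived reads gave reference set 2 lower than reference set 1 by a log2 difference of -3.21 (SE 0.37, adjusted p = 0.000138), where 3.83% of genes were called lower; it was not called without library a of reference set 2. In the second comparison the limma fit gave KIF26B 2.96 (SE 0.56, adjusted p = 0.291), so that the call there rests on the deposited test. Its relative KIF26A had 1.06 to 10.0 normalised reads and passed no test.

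C-terminal motors outside mitosis and the remaining members changed little or had few reads. KIFC3, a minus-end motor of epithelial junctions, had 2826 to 3639 normalised reads over the 8 libraries and passed no deposited test. KIFC2, another such motor, was lower in the third comparison, going by the authors' deposited table (-0.63, SE 0.22, adjusted p = 0.0165) and had -0.40 (SE 0.23, adjusted p = 0.169) in the fourth. KIF25, which overlaps an antisense gene, had 0 to 1.65 normalised reads in the reference libraries and 7.93 and 19.5 in numerator set 2, with adjusted p-values of 0.0611 and 0.0659 in the authors' deposited table, while limma on the derived reads called it at adjusted p = 0.00521 and 0.00687. KIF12, KIF19 and KIF28P had at most 6.51 normalised reads in any library, and KIF19, KIF28P and KIF2B had no adjusted p in the third or the fourth comparison. KIF21B and KIF27 passed no deposited test.

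Among the partners of transport kinesins, 5 of 14 were lower and 2 higher in each of the third and the fourth comparison, going by the authors' deposited table, and the medians were -0.23 and -0.27. Over all tested genes 16.1% and 17.5% were lower (26.7% and 27.6% of those with at least 2 CPM) and 14.8% and 17.2% higher, so that 2 of 14 is near the share of all genes and 5 of 14 not far above that of expressed genes. MAPK8IP1, KIF1BP and RHOT2 were lower in both, RHOT1 and TRAK1 in the third, and FEZ1 and FEZ2 in the fourth. The 2 that were higher are light chains of kinesin-1: KLC1 had 0.59 (SE 0.17, adjusted p = 0.00214) and 1.65 (SE 0.19, adjusted p = 2.99e-16) in the authors' deposited table, and KLC4 had 0.86 (SE 0.24, adjusted p = 0.00193) and 0.68 (SE 0.24, adjusted p = 0.0198). KLC1 had 1605 and 1649 normalised reads in numerator set 2, 976 and 1118 in reference set 1 and 488 and 509 in reference set 2. MAPK8IP1, a scaffold that links kinesin-1 to cargo, had -0.96 (SE 0.25, adjusted p = 0.000798) and -1.25 (SE 0.24, adjusted p = 3.57e-06) in the authors' deposited table. KIF1BP, a protein that binds kinesin motor domains, had -0.68 (SE 0.21, adjusted p = 0.0054) in the fourth. In the first and the second comparison 0 of the 14 were called. Few genes of any kind were: 0.0258% lower and 0.0258% higher in the first, and 0.262% and 0.558% in the second.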

How the data were processed

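RNA sequencing was described for 10 mouse samples in 4 groups, and a single table of 28 columns with 4 unnamed comparisons was analysed. Per the file headers, the columns of a comparison are an identifier, a base mean, a log2 fold change, the SE of that change, a statistic, a raw p-value and its adjusted form. The base mean, a normalised read count averaged over libraries, is the authors' deposited value. The log2 fold changes, the score given as test statistic and the p-values are also as the authors deposited them. The sources used here name no aligner, counter, build or strand setting. Values of 0 named samples were found, so the tests per group could not be run, and 0 columns of other samples were left out. The labels do not say whether libraries of a set are separate animals, so p-values measure only the spread between libraries, which may be technical.

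A deposited adjusted p under 0.05 was the main call. Members and lists were chosen with earlier results of these data known. The mitotic kinesins, the other called kinesins of at least 2 CPM (base mean scaled to a sum of 1000000 over the comparison), the 10 most abundant others and the 3 partner genes with the smallest p in the third and the fourth comparison were named, though not every list gene so taken is printed.

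After the table had been seen, each base mean was resolved into whole reads of its libraries, since it is a sum of reads weighted by 1 step per library. Steps came from rows with few reads, and a lattice search gave 1 set of reads for 35151 of 35395 rows (99.3%). Another 67 rows had too many reads to search and 177 occur in the second comparison alone. Base means of the second comparison, predicted for 27074 rows decoded from the others alone, agreed within a relative gap of 1e-06 in 27074. In simulated tables, made with the same order of size factors in each comparison, 6714 of 6748 rows got their true reads and 0 got others. Reads were scaled by the median of ratios over the 8 libraries. The reads of the 4 libraries of a comparison were fitted with voom and limma 3.58.1 (R 4.3.3) on genes with at least 0.5 CPM in 2 libraries, with Benjamini-Hochberg adjustment over all of them, also without each library. On simulated reads of the third comparison, 18783 genes, limma recovered 64 of 100 genes changed by 1 and 100 of 100 changed by 2 on the log2 scale. Intervals cover counting error only. Mouse promoters are RefSeq's (GRCm38.p6). Tables were made with Python 3.11.15, pandas 2.3.3 and scipy 1.17.1.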

Additional observations from a re-analysis of the deposited data

How the results depend on the processing

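The 9 mitotic kinesins stayed lower in the third and the fourth comparison under every alternative run, including each library left out. Among other kinesins, 4 instead of 7 were higher in the third comparison and 5 instead of 8 in the fourth when p-values were adjusted over genes of at least 2 CPM, a filter that leaves out KIF1A, KIF5A and KIF6. Lower calls in the third were 6 instead of 10 under the labels' selection (log2 fold change over 1 in size, unadjusted p under 0.05) and under an adjusted p with the same size. In the second comparison the labels' selection took 2 kinesins instead of 1, KIF2C being the 1 mitotic one, and limma took 0, with 0 higher. Leaving out each library in turn with limma gave 0 to 16 kinesins in the first comparison (0 to 8 mitotic lower, 0 to 6 other lower, 0 to 2 other higher) and 0 to 14 in the second (0 to 9, 0 to 3 and 0 to 2), the highest without library a of numerator set 1. In the third it gave 17 to 27 kinesins, 5 to 10 other lower and 3 to 8 other higher, and in the fourth 18 to 26, with 5 to 10 other higher. Between the numerator sets 0 to 29 kinesins were called (21 without library a of numerator set 1) against 4 with all libraries, and between the reference sets 0 to 4 against 4. Each fit without a library leaves 1 library in its set, so the spread within that set is not measured. The counts are given here without the share of all genes called in the same fit. Without library a of numerator set 1 that share rose as well, as given above. A rise in the counts therefore does not by itself set kinesins apart from other genes. No paired analysis was possible because no column belongs to a numbered sample. Few reads limit KIF12, KIF19, KIF25, KIF26A, KIF28P, KIF2B and KIF4B.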

Other observations

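Dynein and dynactin, the motor complex that moves towards the minus ends of microtubules, was measured in the same libraries. Of its 18 listed genes, 7 were lower and 2 higher in the third comparison, going by the authors' deposited table, and 8 lower and 1 higher in the fourth. Over all tested genes 16.1% and 17.5% were lower (26.7% and 27.6% of those with at least 2 CPM) and 14.8% and 17.2% higher, so the higher counts are at or below the share of all genes. BICD2, a cargo adaptor, had a log2 fold change of -0.94 (SE 0.16, adjusted p = 1.03e-07) in the third comparison, going by the authors' deposited table, DYNC1H1, the heavy chain, -0.82 (SE 0.16, adjusted p = 7.62e-06), and DYNC1I2, an intermediate chain, -0.74 (SE 0.16, adjusted p = 4.20e-05). DYNC1H1 had the opposite sign against reference set 2, at 0.48 (adjusted p = 0.0551) in the fourth comparison, going by the authors' deposited table. In the second it had 1.49 (adjusted p = 0.00816) there. It was the 1 gene of the list called in the second, where 0.558% of all tested genes were called higher. In the fourth, DYNC1I2 had -1.17 (SE 0.19, adjusted p = 7.32e-09), DCTN2, a dynactin subunit, -1.06 (SE 0.21, adjusted p = 6.37e-06), and DYNLL1, a light chain, -0.86 (SE 0.18, adjusted p = 3.10e-05) in the authors' deposited table. DYNLL2, the sister of DYNLL1, went the other way in the fourth, at 0.70 (SE 0.18, adjusted p = 0.000815) in the authors' deposited table. DYNLL2 had 2356 and 2827 normalised reads in numerator set 2 and 1525 to 1989 in the other 6 libraries, whereas DYNLL1 had 1820 and 1796 in numerator set 2, 1980 in library b of numerator set 1 and 2322 to 3457 in the other 5. The summed reads of the 17 list members with derived reads spanned 21972 to 25808 over the 8 libraries.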
